A study of Mus musculus with 3 samples.

Results

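FULA 1, a mouse lung adenocarcinoma cell line, was set against 2 mouse lungs on expression arrays, and the genes that lay on the same side of both lungs were described. Of 22180 genes, 3715 (16.7%) differed at least 2-fold and in the same direction from each lung: 1965 were higher on FULA 1 and 1750 were lower. The series holds 3 arrays, 1 per group: FULA 1 cells grown in Dulbecco's modified Eagle's medium with 10% fetal bovine serum, lung of FVB mice given saline, and lung of FVB mice 1 week after urethane. Urethane (ethyl carbamate) is a carcinogen that gives mice lung adenomas and adenocarcinomas. The labels describe no tumour in the urethane lung, and FULA 1 is a single line. No genetic change is given for the mice or the line, and age, sex and the number of mice behind each lung RNA are not in the labels. With 1 array per group there was no replicate error and no test, so every difference below describes these arrays. FULA 1 is shared by both comparisons, and the lungs, which had different injections, are not replicates of each other.

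Each value is a log2 hybridization signal after the 3 arrays were put on one distribution (quantile normalization), so a difference of 1 is 2-fold. Values are given in the order FULA 1, saline lung, urethane lung. Olfactory receptor genes, which neither lung nor lung tumour cells are known to use widely, gave a background mark on each array: the 95th percentile of 1105 such genes, at 1.96, 2.46 and 2.44. A value under its mark was held at the mark, so a difference from it is a lower bound and is written "at least". The difference quoted for a gene is the smaller of its differences from the 2 lungs. Values of different genes come from different probes and were not compared with each other.

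Lung is a mixture. Alveolar type 2 cells make surfactant, flat type 1 cells cover the gas exchange surface, club and ciliated cells line the airways, and capillary endothelium, fibroblasts, smooth muscle and leukocytes make up the remainder. A cell line is one epithelial lineage that divides continuously in medium with serum. Culture, tumour origin and the absence of the other cell types therefore differ together between FULA 1 and the lungs and cannot be told apart here. In whole lung, fewer cells of a type and less RNA per cell cannot be told apart either.

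The counts of calls depended on the scale. Higher calls were 8.86% and lower calls 7.89% of all genes, and the median difference over all genes was 0. The 7406 genes under the mark on every array could not be called. Among the 14774 genes above the mark on at least 1 array, the shares were 13.3% and 11.8%. The second pair is the nearer background for a list with few members under the mark everywhere, and the first pair for other lists. Against saline lung alone, 2401 genes (10.8%) were higher and 2478 (11.2%) lower. Against urethane lung alone, 2297 (10.4%) were higher and 2159 (9.73%) lower, and 0 genes lay at least 2-fold above one lung and below the other. The median size of the smaller difference was 1.5 for higher and -1.51 for lower genes. Differences of at least 8-fold were found for 95 higher and 195 lower genes. The deposited columns were on different scales, so a split into higher and lower holds only for the normalization used. Under 5 other scalings (a common median, FULA 1 quantiles, lung quantiles, a lowess curve and percentile ranks), 744 of the higher and 571 of the lower genes kept their call in every one. The count of higher or lower genes in most lists moved as well; the lowest and highest count over these 5 is given in brackets as a range after each count of 2 or more. Counts of 1 and 0 also moved, in some lists to several genes.

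**Figure D1:**
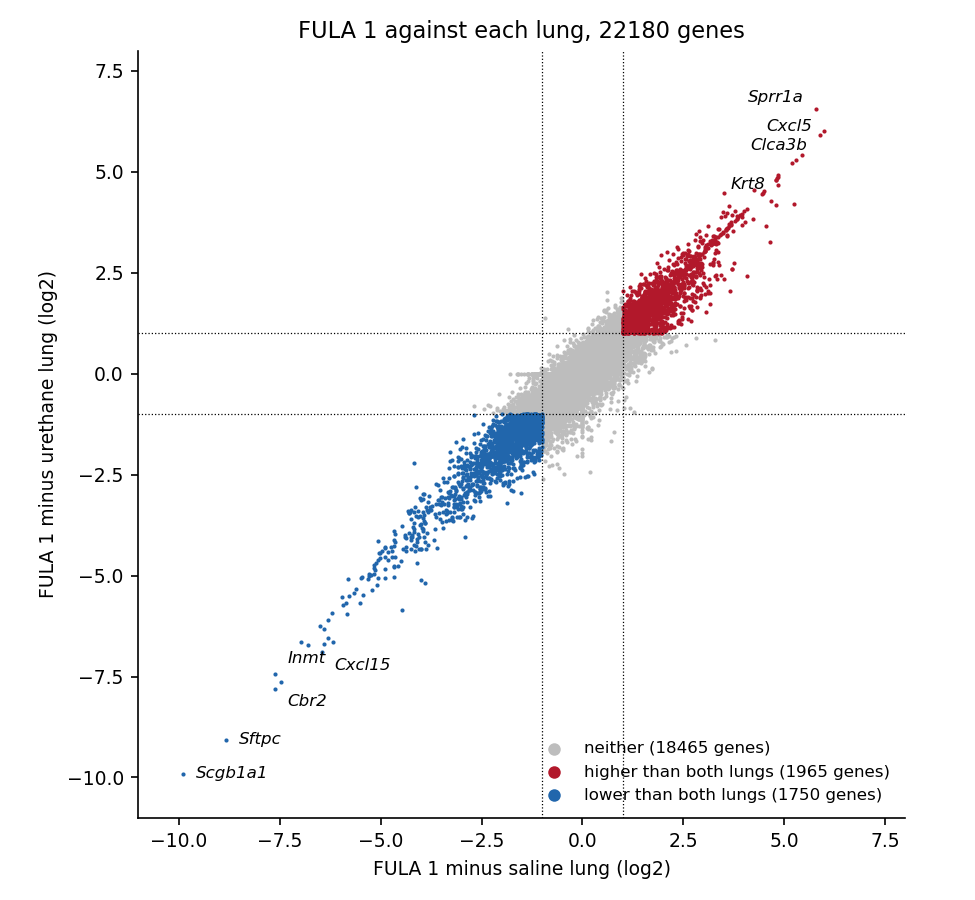
Difference of FULA 1 from saline lung (horizontal axis, log2) against its difference from urethane lung (vertical axis, log2) for 22180 genes, 1 point per gene, with values under the background mark held at it; dotted lines mark 2-fold. By the rule for a call, the 1965 genes higher than both lungs and the 1750 lower than both lie in opposite corners. The lower side reaches further, to Scgb1a1.

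At the threshold, Polr2f was just inside the higher group with 8.14, 7.13 and 7.14. Zfp719 was just outside it with 3.46, 1.45 and 1.61; both lungs were under their marks, and from the marks its smaller difference was just under 1. Clta, which encodes a clathrin light chain, was just inside the lower group with 4.0, 5.17 and 5.00, and Anks6 was just outside with 2.53, 3.64 and 3.53. Such genes differ by nothing that 1 array per group could resolve. Among higher genes, 819 had at least 1 lung under its mark, and 458 of the lower genes had FULA 1 under its mark, so these differences have no upper limit.

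The label of the line was set against markers of lung and epithelium. Of 3 general epithelial markers, Krt8 (keratin 8) read 10.27, 5.43 and 5.60, Krt18 (its partner keratin 18) read 6.42, 3.53 and 3.81, and Cdh1 (E-cadherin) read 5.46, 3.40 and 3.90. All 3 were higher on FULA 1. Epcam, a surface marker of epithelium and carcinoma, went the other way with 3.31, 3.82 and 4.59, within 2-fold of saline lung. Nkx2-1, the transcription factor that defines lung epithelium, was above the mark on FULA 1 but lower than both lungs, with 3.19, 4.37 and 4.59. Markers of the other lung compartments were low on FULA 1: Ptprc (CD45, on leukocytes) read 1.62, 3.06 and 3.35, and Pecam1 (CD31, on endothelium) read 2.17, 6.53 and 6.46. Ptprc was under the FULA 1 mark and Pecam1 just above it. Vim (vimentin, a mesenchymal filament protein) stayed within 2-fold at 7.02, 7.96 and 7.47. Xist, the RNA that coats the inactive X chromosome, was higher on FULA 1, with 7.86, 4.02 and 3.94. Actb, a common reference gene, read 7.44, 8.77 and 8.54 and Gapdh, another one, read 9.74, 6.96 and 6.44; they lay on opposite sides of both lungs. These markers, and other genes that the naming rule does not reach, were chosen after their values had been seen.

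The 15 genes furthest above both lungs included secreted proteins, an integrin, keratins, enzymes and a cell division gene. Cxcl5, a chemokine that draws neutrophils, read 8.45, 1.87 and 1.98, at least 5.99 above either lung. Clca3b, of the calcium-activated chloride channel regulator family, read 8.35, 0.79 and 1.02, at least 5.88 above. Sprr1a, a cornified envelope precursor, read 10.03, 4.24 and 3.46, a difference of 5.79. Both lungs were under their marks for Cxcl5 and Clca3b but not for Sprr1a. Itga2, the collagen-binding integrin subunit, read 7.90, 2.24 and 2.50, and Ect2, the exchange factor that starts cytokinesis, read 7.67, 2.48 and 2.16. The enzymes among the 15 were Pgap1 (GPI anchor remodelling; 7.32, 2.25 and 1.89), Mboat1 (phospholipid acylation; 7.41, 2.58 and 2.49), Ugt2b34 (glucuronidation; 7.28, 1.91 and 1.92), Cpe (prohormone processing; 6.96, 1.75 and 1.56) and Vnn1 (pantetheinase; 6.90, 1.97 and 2.15). In each of them FULA 1 stood at least 4.44 above the higher lung. The remaining members were Ranbp3l, the annexin Anxa10, the keratins Krt20 and Krt8, and the organic anion carrier Slco4a1. Krt8 differed by 4.67, and Ranbp3l, Anxa10, Krt20 and Slco4a1 by at least 5.28, 4.79, 4.78 and 4.46.

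The 15 genes furthest below both lungs included products of airway and alveolar epithelium and of stroma. Scgb1a1, the secretoglobin of club cells, read 1.27, 11.85 and 11.88, at least 9.89 lower and under the mark on FULA 1. Sftpc, surfactant protein C of alveolar type 2 cells, read 2.21, 11.04 and 11.29, which is 8.83 lower. Cbr2, a carbonyl reductase of lung, read 2.86, 10.48 and 10.68. Lyz1 (lysozyme) read 2.19, 9.66 and 9.81, and Inmt, an N-methyltransferase of lung stroma, read 2.23, 9.85 and 9.66. On FULA 1 all 5 were under the mark or within 1 log2 unit of it. Epas1 (HIF-2 alpha, abundant in endothelium) read 3.16, 9.96 and 9.87, Ifitm3, an interferon-induced membrane protein, read 2.01, 8.21 and 7.95, and Fmo2, the flavin monooxygenase of lung, read 2.36, 8.77 and 8.68. Cxcl15, Sftpb, Hp (haptoglobin), Tmem100, Sftpa1, Ogn (osteoglycin) and Dpt (dermatopontin) completed the set, lower by 5.68 to 6.45, with FULA 1 under its mark for Cxcl15, Tmem100, Ogn and Dpt. Each of the 30 genes rests on 1 probe set, and Clca3b, Sprr1a, Ugt2b34 and Lyz1 have close relatives whose transcripts the probes may share. The percentile rank scaling took Sprr1a and Krt8 out of the higher group, since at least 1 lung stood within 15 percentile points of FULA 1; the other 28 kept their call under all 5 scalings.

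**Figure D2:**
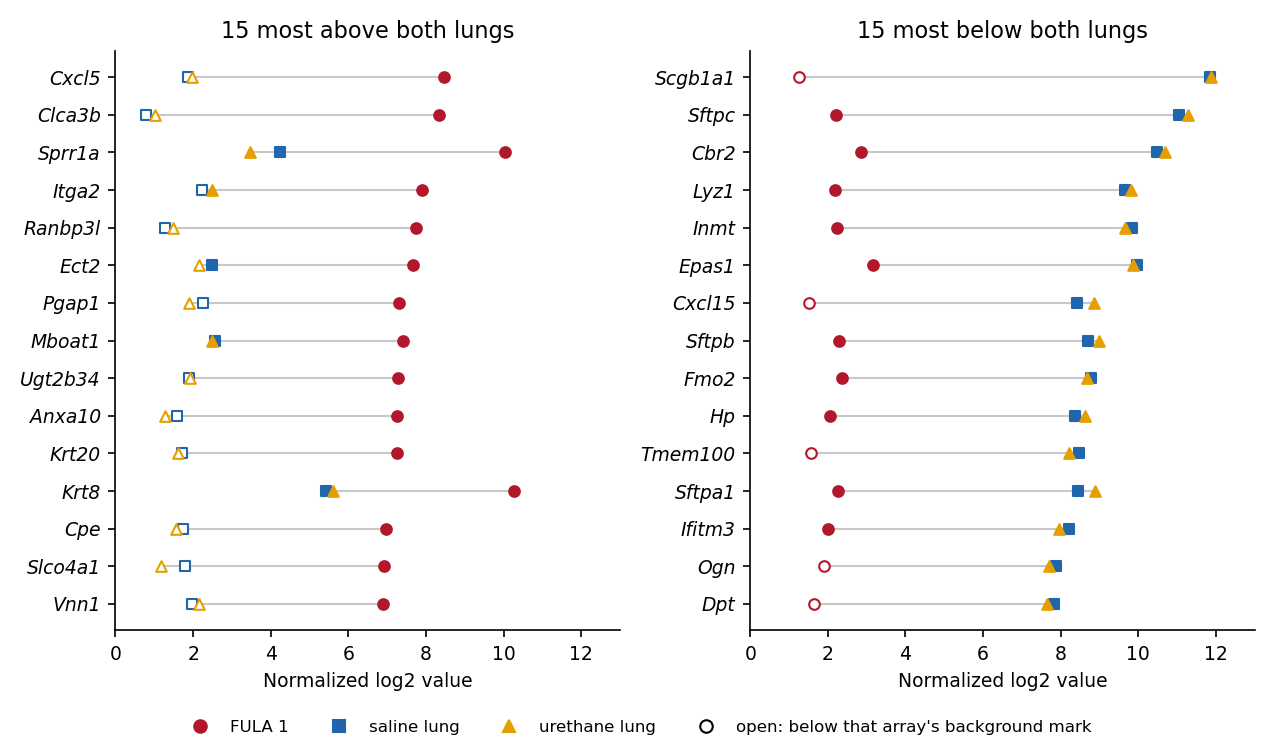
Normalized log2 values of the 15 genes furthest above (left) and below (right) both lungs, 1 point per array: FULA 1 circles, saline lung squares, urethane lung triangles, open where the value is under that array's background mark. The 2 lungs lie within 1 log2 unit of each other in every row. With values under the mark held at it, which the points are not, the size of the smaller difference runs from 4.44 for Vnn1 to 9.89 for Scgb1a1.

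Most genes of mitosis were higher on FULA 1. The list of spindle, kinetochore, checkpoint and cytokinesis genes held 70 members, of which 62 (88.6%) were higher on FULA 1 and 0 lower, with a median difference of 2.34 from the mean of the lungs. The range of higher genes over the 5 other scalings was 53 to 68. Cks2, a small subunit of cyclin-dependent kinases, read 7.76, 3.10 and 3.49. Ccnb2 (cyclin B2) read 8.27, 4.02 and 3.73, and the motor Kif11, which pushes spindle poles apart, read 6.54, 1.91 and 2.08. Anln (anillin, of the contractile ring) read 6.40, 1.91 and 1.57, and the checkpoint kinase Bub1 read 6.06, 1.47 and 0.88. For Kif11, Anln and Bub1 both lungs were under their marks. Condensin and cohesin subunits, which fold and hold chromosomes, were higher in 10 of 16 (range 4 to 14), led by Smc2 with 5.69, 1.99 and 1.92. Centromere proteins were higher in 10 of 20 (range 8 to 14), led by Cenpn with 6.01, 1.78 and 1.58. The members of the mitosis list that were within 2-fold included Kifc1, at 2.47, 2.68 and 1.78, and Pimreg, at 3.52, 3.42 and 3.21.

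Many cell division genes share 2 short promoter elements, the cell cycle homology element (TTTGAA or TTCGAA) and the CCAAT box, on which the DREAM and MuvB complexes and NF-Y are known to act. Both were searched on both strands from 250 bases before to 50 after the start of each gene (RefSeq promoters, GRCm38.p6). The first was present in 40 of 56 mitosis promoters that had an entry (71.4%), against 19.4% of 16990 promoters. The second was present in 37 of the 56 (66.1%), against 41.6%, and 57.1% held both, against 8.88%. DNA replication promoters held the first in 29.7% and the second in 59.5%. Among all higher genes the shares were 18.9% and 45.1%, and among all lower genes 15.6% and 37.3%. A match is a description of letters, not a bound site. The last 100 bases before the start of Cdk1 (the mitotic kinase; 7.80, 5.20 and 4.90), Cdc20 (activator of the anaphase-promoting complex; 5.53, 4.26 and 3.92), Top2a (topoisomerase II alpha; 6.55, 3.19 and 2.97) and Kif11 are shown because both elements stand in each; capitals mark them on either strand, and they overlap in none. The stretches are chr10:69352913-69353012 and chr4:118437344-118437443 on the minus strand for Cdk1 and Cdc20, chr11:99024190-99024289 on the minus strand for Top2a, and chr19:37376282-37376381 on the plus strand for Kif11, each written 5′ to 3′ along its gene.
Cdk1: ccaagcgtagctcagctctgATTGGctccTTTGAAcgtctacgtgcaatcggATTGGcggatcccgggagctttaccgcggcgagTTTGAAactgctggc
Cdc20: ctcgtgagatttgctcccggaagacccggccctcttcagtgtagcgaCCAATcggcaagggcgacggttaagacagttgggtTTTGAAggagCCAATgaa
Top2a: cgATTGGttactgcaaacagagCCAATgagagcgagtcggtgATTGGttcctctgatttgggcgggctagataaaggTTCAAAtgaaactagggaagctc
Kif11: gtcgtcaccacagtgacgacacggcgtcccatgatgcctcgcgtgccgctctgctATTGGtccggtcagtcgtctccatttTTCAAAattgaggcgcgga

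**Figure D3:**
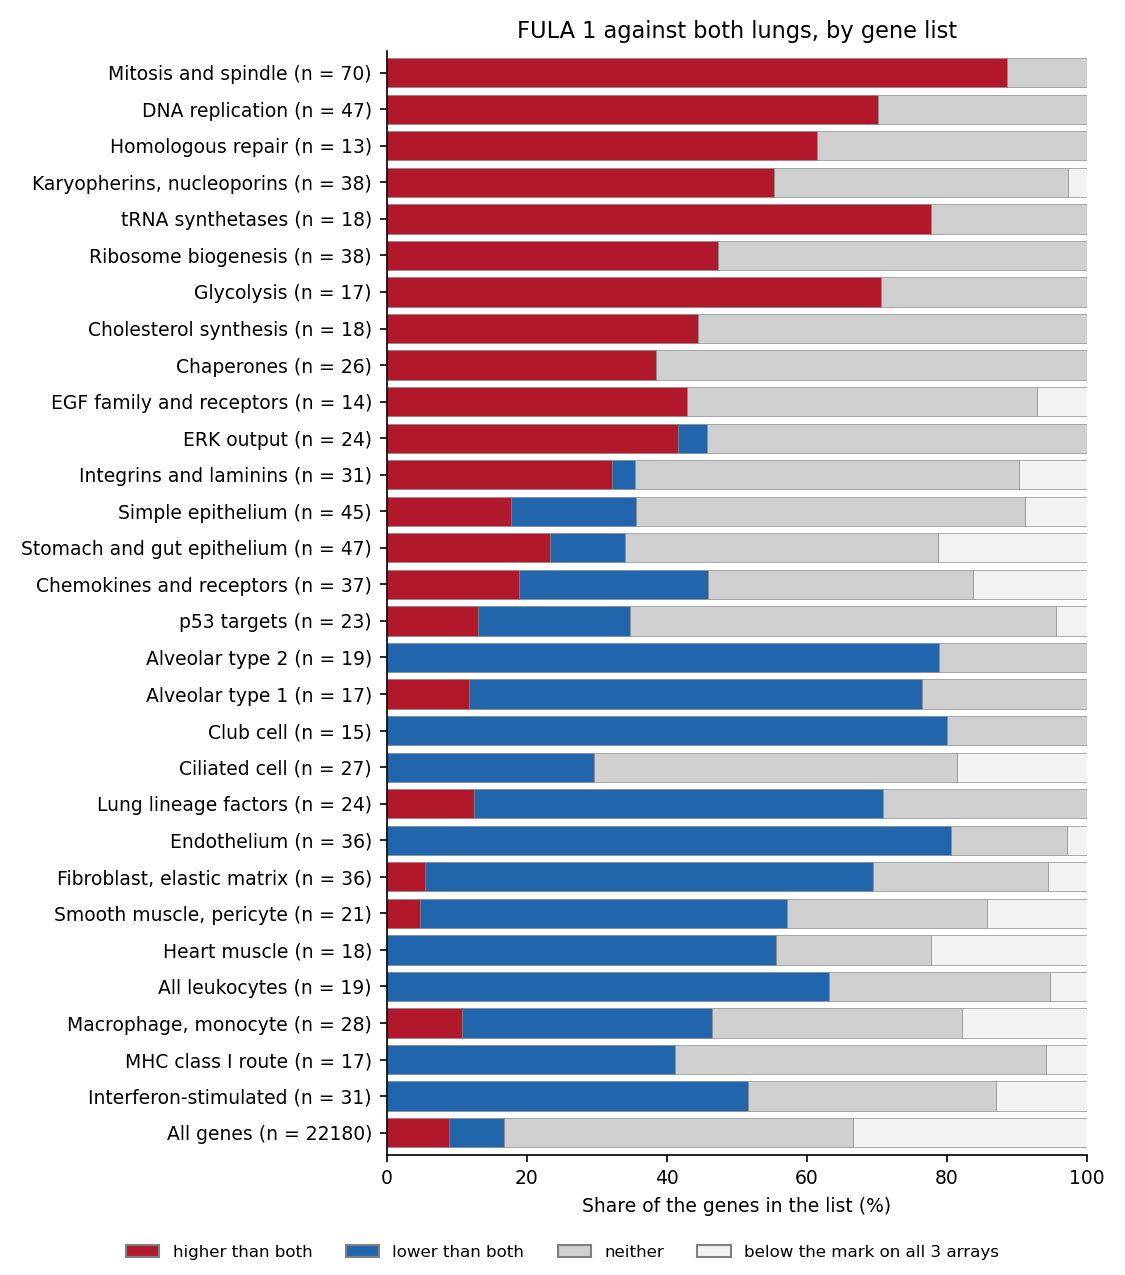
Share of each gene list (horizontal axis, %) that was higher than both lungs, lower than both, neither, or under the background mark on all 3 arrays, with all 22180 genes in the bottom bar. Mitosis reaches 88.6% higher, and endothelium (80.6%), club cell (80.0%) and alveolar type 2 (78.9%) lists are the most completely lower.

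DNA synthesis genes followed the mitosis list at smaller sizes. In the replication list 33 of 47 (70.2%) were higher and 0 lower, with a median of 1.52 and a range of 24 to 43 over the other scalings. Pola2, a subunit of the primase polymerase, read 5.97, 2.89 and 2.85, and Hells, a chromatin remodeller, read 5.49, 1.84 and 1.92. Of the MCM family, which holds the replicative helicase, 8 of 9 were higher (range 5 to 8); Mcm7 read 5.93, 2.97 and 3.21, and Mcm5 read 6.35, 3.47 and 3.85. Homologous repair genes were higher in 8 of 13, with 6 to 12 over the other scalings. Fancd2 read 4.66, 1.99 and 1.92 and Bard1, the partner of Brca1, read 4.60, 1.47 and 1.03. Nucleotide synthesis genes were higher in 10 of 28 (range 8 to 22) and lower in 1. Rrm1, the large subunit of ribonucleotide reductase, read 6.95, 3.79 and 3.66, whereas Impdh1, which makes guanine nucleotide precursors, read 4.27, 5.79 and 6.17. Both telomerase components were higher: Terc, the RNA template, read 8.88, 5.89 and 6.40, and Tert, the reverse transcriptase, read 3.86, 1.82 and 1.88.

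Around the G1 phase the genes divided. Of 22 cyclin, kinase, inhibitor and E2F genes, 8 were higher (range 3 to 13) and 4 lower (range 0 to 6). E2f8, a repressor E2F, read 5.14, 2.58 and 2.13, Rbl1 (p107) read 5.33, 3.12 and 3.21, and Cdk6 read 6.38, 4.77 and 4.32. Cdkn2a, the locus of p16 and p19ARF, was above the mark on FULA 1 with 3.97, 2.37 and 2.89. Cdkn1a (p21) was the lowest member at 4.53, 7.06 and 7.32, followed by Ccnd3 at 4.86, 6.46 and 6.17. In the p53 target list 3 of 23 were higher (range 1 to 7) and 5 lower, shares close to the background for the higher side. Ccng1 (cyclin G1) read 6.64, 9.25 and 9.30, Btg2 read 3.87, 5.57 and 6.21, and Bbc3 (PUMA) read 2.12, 3.72 and 3.95. Tnfrsf10b, the TRAIL death receptor, was the clearest exception with 5.27, 1.76 and 1.55. Lower counts in this list ran from 1 to 8 over the other scalings.

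In nuclear transport and protein synthesis the groups differed in how many genes were higher. Karyopherins and nucleoporins, which carry cargo through nuclear pores, were higher in 21 of 38 (range 8 to 34) and lower in 0. Nup155 read 6.36, 1.88 and 1.80, and Xpot, the tRNA exporter, read 6.19, 3.75 and 3.30. Ribosome biogenesis genes were higher in 18 of 38 (range 10 to 32), with Wdr43 at 6.70, 4.21 and 3.72 and Nop58 at 5.81, 3.56 and 3.08. Cytosolic ribosomal protein genes were higher in 4 of 63 (6.35%, range 1 to 15) and lower in 5 (7.94%, range 3 to 14). Of genes above the mark on at least 1 array, 13.3% were higher and 11.8% lower. Cytosolic tRNA synthetases were higher in 14 of 18, but in 3 to 17 over the other scalings. Iars, for isoleucine, read 6.69, 3.65 and 3.56 and Qars, for glutamine, read 4.78, 2.04 and 2.10. Chaperones were higher in 10 of 26 and lower in 0, with a range of 1 to 21. Hspd1 (mitochondrial HSP60) read 6.99, 4.26 and 4.48, and Cct3, of the chaperonin ring that folds actin and tubulin, read 6.01, 4.19 and 4.12. Hspa1b (HSP70) read 6.17, 2.32 and 3.58 and has a near-identical copy.

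Of the metabolic routes, glycolysis had the largest share higher under the normalization used, 12 of 17 genes, and 0 lower. Pgk1 read 9.88, 6.55 and 6.63, Pkm (pyruvate kinase) read 9.81, 6.56 and 6.96, and Slc16a1 (the lactate carrier MCT1) read 7.56, 4.26 and 4.18. The count ran from 0 to 14 over the other scalings: it was 0 under percentile ranks, where a gene must differ by 15 percentile points from each lung. The order of the routes was not kept there, since cholesterol synthesis had at least 5 of 18 higher under each of those scalings. Tricarboxylic acid cycle genes were higher in 3 of 20 (15%), led by Idh3a with 5.53, 3.63 and 3.85, and the range was 0 to 19. This share was near the 13.3% of genes above the mark on at least 1 array. Cholesterol synthesis genes were higher in 8 of 18 (range 5 to 15) and lower in 0. Srebf2, the transcription factor of the route, read 7.58, 4.63 and 4.94, Sqle (squalene epoxidase) read 5.78, 3.15 and 2.73, and Fdft1 (squalene synthase) read 6.85, 4.78 and 4.68. Among fatty acid synthesis genes, 4 of 14 were higher (range 1 to 11): the elongase Elovl6 (6.74, 3.27 and 2.74), malic enzyme Me1 (6.77, 4.13 and 3.98), the desaturase Fads2 (7.76, 4.93 and 5.37) and Acsl5 (7.35, 4.65 and 5.03).

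Amino acid supply genes, many of them under ATF4, were higher in 10 of 29 (range 9 to 16) and lower in 3 (range 0 to 4). Psat1 and Phgdh, of serine synthesis, read 5.82, 2.55 and 1.28, and 5.41, 2.79 and 2.76. Aldh18a1, of proline synthesis, read 5.69, 2.72 and 2.08, and Slc7a5 (the large neutral amino acid carrier LAT1) read 7.29, 4.47 and 3.82. The stress-linked factors on the list lay on the other side: Atf5 read 3.17, 5.26 and 5.41, Nupr1 read 4.41, 6.02 and 5.89, and Cebpb read 3.65, 5.53 and 5.09. Of 23 genes of the NRF2 and pentose phosphate list, 9 were higher (range 4 to 15) and 3 lower (range 0 to 3). The efflux pump Abcc4 read 5.37, 2.23 and 1.92, Ugdh, which makes UDP-glucuronate, read 7.97, 5.41 and 5.32, and Abcc1 read 5.70, 3.25 and 3.16. Txn1 (thioredoxin) read 6.94, 8.56 and 8.53 and Gstm1, a glutathione transferase, read 4.25, 6.17 and 5.78. Oxidizing enzymes of foreign compounds were higher in 2 of 33 (range 2 to 8) and lower in 9 (range 8 to 12). Fmo1 read 2.63, 7.92 and 7.58, Cyp2f2, a club cell cytochrome P450, read 1.97, 6.22 and 6.10, and Xdh (xanthine dehydrogenase) read 3.39, 8.06 and 7.28. Ephx2, an epoxide hydrolase, stood against them with 4.78, 2.06 and 2.0.

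Membrane carriers lay on both sides. Of 353 solute carriers, 51 (14.4%) were higher (range 42 to 117) and 17 (4.82%) lower (range 8 to 47), and 97 were under the mark on all arrays. The shares were 8.86% and 7.89% of all genes, and 13.3% and 11.8% of those above the mark on at least 1 array. The higher share of carriers was thus near the latter, and their lower share was under both. Slc12a2, the sodium-potassium-chloride cotransporter NKCC1, read 7.38, 2.60 and 3.21, Slc7a6, an amino acid exchanger subunit, read 6.41, 2.31 and 2.73, and the phosphate carrier Slc20a2 read 6.32, 2.75 and 2.89. The phosphate carrier of alveolar type 2 cells, Slc34a2, went the other way with 2.45, 7.10 and 7.47. ABC transporters were higher in 12 of 48 (range 10 to 20) and lower in 1. Both mouse genes for the drug efflux pump P-glycoprotein were among the 12: Abcb1b read 4.39, 2.25 and 1.49, and Abcb1a read 4.22, 1.97 and 1.87. All lung values of the pair lay under the marks.

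Receptors and outputs of the EGF route were higher in part. In the EGF family and receptor list 6 of 14 were higher and 0 lower, with 4 to 9 over the other scalings. Erbb2 (HER2) read 5.55, 3.36 and 3.80, Erbb3 read 4.20, 2.40 and 2.12, Egfr read 4.28, 2.45 and 2.58, and the ligand Ereg (epiregulin) read 4.06, 1.90 and 1.65. ERK output genes were higher in 10 of 24 (range 6 to 18) and lower in 1. Myc read 5.96, 2.62 and 2.95, Plaur (the urokinase receptor) read 6.18, 3.71 and 3.21, and Emp1, a membrane protein, read 6.54, 4.10 and 4.08. Etv5, a transcription factor also used by type 2 cells, was the exception with 2.41, 3.55 and 3.59. Of 33 other receptor tyrosine kinases 3 were higher (range 1 to 6) and 7 lower (range 3 to 10). Axl read 6.55, 4.63 and 4.14 and Met, the hepatocyte growth factor receptor, read 5.48, 3.20 and 3.57. The lowest were endothelial: Kdr (VEGF receptor 2) read 2.39, 6.38 and 6.10, and Tek (TIE2) read 1.74, 5.12 and 5.24. YAP targets were higher in 6 of 20 (range 1 to 12) and lower in 2 (range 0 to 4), led by Ccn1 (9.02, 5.00 and 5.27) and Ankrd1 (9.14, 5.55 and 5.15), with Amotl1, an angiomotin, at 3.68, 5.73 and 5.65.

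In the developmental routes both directions occurred. BMP and TGF-beta genes were higher in 9 of 30 (range 4 to 17) and lower in 4 (range 3 to 6). Id2, a BMP-induced inhibitor of differentiation factors, read 8.96, 7.02 and 6.97 and Smad3 read 5.11, 3.59 and 3.49, while the endothelial receptors Eng (2.75, 7.98 and 7.73) and Acvrl1 (2.55, 6.01 and 6.37) were lower. Wnt genes were higher in 5 of 37 (range 4 to 9) and lower in 6 (range 2 to 10). Of genes above the mark on at least 1 array, 13.3% were higher and 11.8% lower. The share of higher Wnt genes was thus near that background, and the share of lower ones somewhat above it. Lgr4, an R-spondin receptor, read 5.24, 2.60 and 2.45 and the receptor Fzd6 read 5.08, 2.74 and 2.81, against 2.12, 6.76 and 6.09 for the inhibitor Nkd1. Notch genes were higher in 2 of 19 (range 2 to 4), the ligands Jag1 (5.09, 2.66 and 2.87) and Jag2 (4.13, 2.36 and 2.07). The target Hey1 (3.29, 6.28 and 6.65) and the glycosyltransferase Mfng (2.25, 4.66 and 5.07) were the lowest of 7 lower Notch genes (range 3 to 8). Immediate early genes were higher in 2 of 23 (range 0 to 8) and lower in 5 (range 2 to 6), among them Klf2 (2.60, 5.62 and 6.16) and Jun (4.42, 6.72 and 7.13).

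Epithelial structure genes did not shift as a block. In the simple epithelial list 8 of 45 were higher (range 8 to 17) and 8 lower (range 4 to 10). Beside the keratins, Dsp (desmoplakin, of desmosomes) read 6.97, 3.34 and 3.26 and Cldn6, a claudin of embryonic epithelium, read 5.11, 1.12 and 1.20. The lower members included Krt80 (3.50, 6.38 and 6.28), Rab25 (2.07, 4.05 and 4.06) and the claudins Cldn7 (2.56, 4.79 and 4.46) and Cldn1 (1.63, 3.79 and 3.72). The cornified envelope list had Sprr1a as its only higher member of 32, with 14 under the mark on every array; Tgm1, the transglutaminase that crosslinks such proteins, was lower at 2.03, 3.56 and 3.27. Integrins and laminins, by which epithelium holds its basement membrane, were higher in 10 of 31 (range 5 to 17) and lower in 1. Itga6 read 6.64, 2.95 and 2.89, Itga3 read 7.83, 5.16 and 5.08, and Lamc1 (laminin gamma 1) read 6.05, 3.80 and 3.57. Itga8, a stromal integrin, read 1.05, 4.32 and 4.01.

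Several genes best known from stomach and intestine were under or near the mark on the lungs and well above it on FULA 1. In that list of 47 genes, 11 (23.4%) were higher and 5 lower (range 1 to 8), 10 were under the mark everywhere, and 9 to 13 were higher over the other scalings. Its leading members were Clca3b, Ugt2b34, Anxa10 and Krt20, given above. Apob, the apolipoprotein of chylomicrons and low-density lipoprotein, read 6.29, 2.38 and 2.24. Cdh17, the cadherin of liver and intestine, read 6.14, 2.0 and 1.83, Ctse, a gastric aspartic protease (cathepsin E), read 5.27, 1.81 and 1.61, and Lgals4 (galectin 4) read 4.97, 2.57 and 2.08. The transcription factor Hnf4a was a smaller member at 3.74, 2.36 and 1.98, and Cdx2, the intestinal factor, read 2.62, 1.97 and 1.28 and was not called. Not all gastric genes took part: Tff2 (2.70, 4.42 and 4.67), Gkn2 (2.07, 3.29 and 3.28), Sox2 (3.15, 4.75 and 4.80), Muc1 (5.03, 6.53 and 6.74) and Reg3g (1.32, 4.23 and 4.59), all of which lung also uses, were lower.

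**Figure D4:**
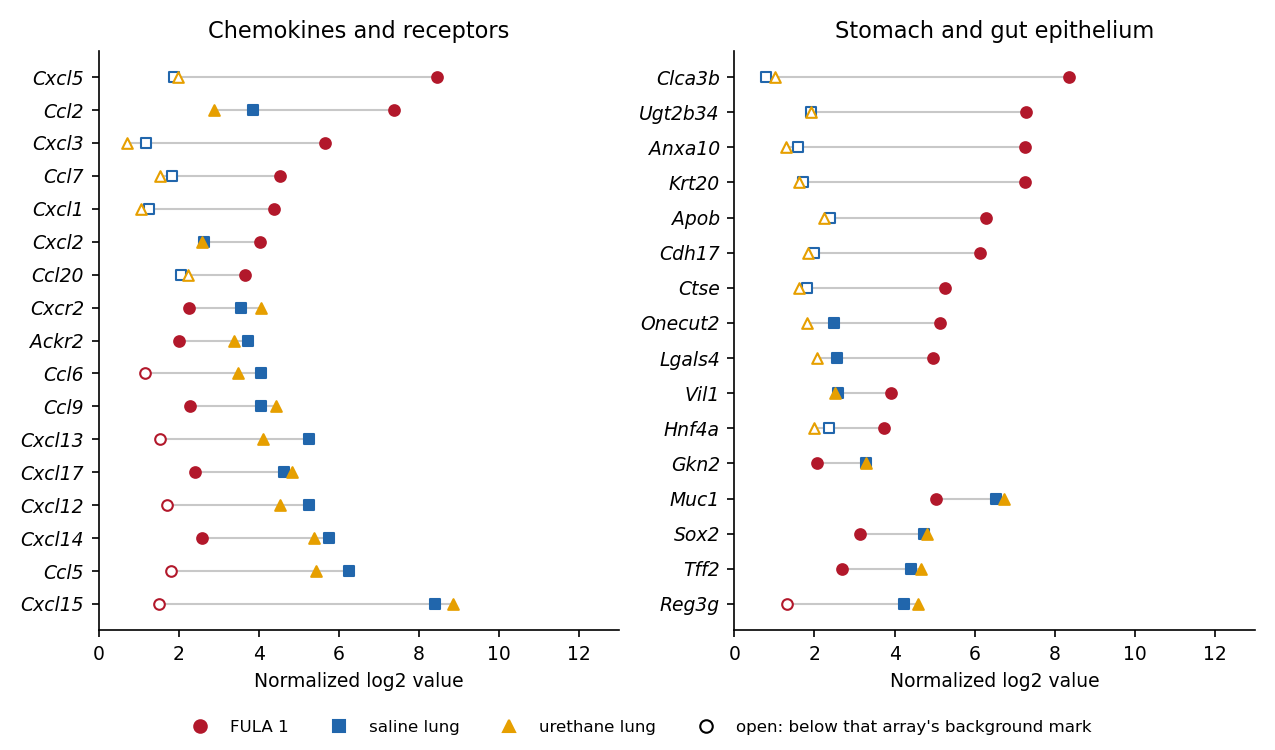
Normalized log2 values of every called gene of the chemokine list (left) and of the stomach and gut epithelium list (right), 1 point per array, with open symbols under that array's background mark. Cxcl5 and Cxcl15 lie at opposite ends of the chemokine panel, and the 11 higher gut genes have at least 1 lung value at or near the mark.

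Mesenchymal genes lay on both sides of the lungs. In the epithelial-mesenchymal transition list 4 of 21 were higher (range 2 to 10) and 5 lower (range 2 to 7). Fn1 (fibronectin) read 9.11, 5.41 and 5.18, S100a4 read 5.21, 1.71 and 2.19, Cd44 read 5.42, 3.64 and 3.21, and Lgals1 read 10.80, 8.91 and 8.16. Sparc (4.27, 6.64 and 6.70), the repressor Zeb1 (3.54, 5.35 and 5.39), Tagln (1.55, 3.70 and 3.87) and Tgfbi (3.10, 4.81 and 5.03) were lower. In the protease list 4 of 30 (13.3%) were higher and 3 (10%) lower (range 1 to 5). These shares were near the 13.3% and 11.8% of genes above the mark on at least 1 array. Each of the other scalings gave more higher genes (range 5 to 12). Plat (tissue plasminogen activator) read 6.79, 3.21 and 3.36, and Mmp2 read 2.13, 5.23 and 5.42. The chromatin protein Hmga2, of embryonic cells and carcinomas, read 5.63, 3.85 and 3.14.

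Chemokines lay on both sides of the lungs. Of 37 ligands and receptors, 7 were higher and 10 lower, with 6 to 8 and 8 to 15 over the other scalings. All 7 higher members were ligands for neutrophils, monocytes or CCR6-bearing lymphocytes. Among those of neutrophils, Cxcl3 read 5.65, 1.19 and 0.72, Cxcl1 read 4.38, 1.27 and 1.06, and Cxcl2 read 4.04, 2.64 and 2.58. The monocyte chemokines Ccl2 and Ccl7 read 7.37, 3.85 and 2.89, and 4.53, 1.83 and 1.54, and Ccl20 read 3.65, 2.07 and 2.24. Cxcl15, the lung epithelial chemokine lungkine, was the lowest at 1.51, 8.41 and 8.85. Ccl5, of T cells and macrophages, read 1.82, 6.26 and 5.42, Cxcl14 read 2.59, 5.75 and 5.39, and Cxcl12, of stroma, read 1.71, 5.26 and 4.54. The receptor Cxcr2, which binds the neutrophil ligands, was lower on FULA 1 at 2.27, 3.56 and 4.07.

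Of other secreted factors, more were lower than higher. In the cytokine and growth factor list 6 of 46 were higher (range 5 to 11) and 12 lower (range 4 to 16). Pdgfc read 4.46, 1.47 and 1.28, Bmp4 read 4.65, 2.90 and 2.77, Bmp7 read 5.24, 3.52 and 3.29, and the alarmin Il33 read 7.06, 5.39 and 5.30. Il1b (1.45, 3.80 and 4.75), Bmp6 (2.37, 5.34 and 5.86), Tgfb3 (3.39, 6.46 and 5.70) and Igf2 (1.87, 3.71 and 3.68) were the lowest. In the vasoactive list 2 of 26 were higher (range 2 to 2) and 12 lower (range 10 to 14). Both higher genes act on the route to prostaglandin E2: Ptgs2 (COX-2) read 7.51, 3.89 and 3.37, and Ptges read 5.31, 2.95 and 2.44. Hpgd, which breaks prostaglandins down, read 4.28, 8.94 and 9.04. Ace, the angiotensin-converting enzyme of lung capillaries, read 2.09, 6.90 and 6.51 and Npr3, a natriuretic peptide receptor, read 1.83, 5.87 and 5.67. In the TNF family 6 of 29 were higher (range 5 to 10) and 5 lower (range 2 to 6), led by the decoy receptor gene Tnfrsf23 at 6.03, 1.53 and 1.92. The TRAIL ligand Tnfsf10, by contrast with its receptor above, read 1.60, 4.49 and 4.27.

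Most genes of alveolar and club cells were lower on FULA 1, and fewer of ciliated cells. Alveolar type 2 genes were lower in 15 of 19 (78.9%) and higher in 0, with a median of -4.11 and 12 to 15 over the other scalings. After Sftpc and Lyz1, Sftpb read 2.29, 8.69 and 9.0, Sftpa1 read 2.26, 8.44 and 8.90 and Napsa, the aspartic protease that matures surfactant proteins, read 2.04, 6.72 and 6.30. Type 1 genes were lower in 11 of 17 (range 11 to 12) and higher in 2 (range 0 to 3). Ager (RAGE) read 2.90, 8.10 and 8.25, Cldn18 read 2.82, 7.98 and 7.78, and Akap5 read 2.86, 7.76 and 7.40. Aqp5, the water channel of type 1 cells and glands, stood against its list with 7.77, 5.28 and 5.49, as did Sema3e with 6.12, 3.93 and 3.66. Club cell genes were lower in 12 of 15 (range 12 to 13) and higher in 0, with a median of -3.62. Scgb3a1 read 2.48, 8.10 and 7.81 and Bpifa1, an airway host defence protein, read 1.65, 6.07 and 6.66. Ciliated cell genes were lower in 8 of 27, with 6 to 18 over the other scalings. Foxj1, the factor that drives ciliogenesis, read 1.67, 4.08 and 3.97. Tppp3 read 2.91, 8.20 and 7.93, but was deposited with equal values.

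A group of 9 genes, Tppp3 among them, had a single deposited value on all 3 arrays (equal within 0.005 log2): Calcrl, Emcn, Erg, Gdpd3, Ldb2, Mgp, Rhoj, Serpina3n and Tppp3. All 9 were lower members, and Calcrl, Emcn and Erg are counted in the endothelial list below, Mgp in the fibroblast list and Calcrl in the vasoactive list above. Their difference comes from the normalization alone, since the deposited values do not differ. Most other lower calls rest on the normalization too: as deposited, 18 of the 1750 lower genes stayed lower and 1615 counted as higher.

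Transcription factors of lung lineages were lower in 14 of 24 and higher in 3 (range 0 to 7). Foxf1, a factor of lung mesenchyme and endothelium, read 2.50, 7.38 and 7.34, Tcf21, of fibroblasts, read 1.94, 5.75 and 5.27, and Tbx2 read 1.96, 5.22 and 4.96. Of the 14 T-box genes 4 were lower (range 4 to 8), Tbx2 to Tbx5. Foxa1, an endoderm factor, went the other way with 6.07, 3.78 and 3.79, whereas its relative Foxa2 read 3.08, 4.70 and 4.31. Klf5, of proliferating epithelium, read 7.14, 5.83 and 6.03. Lower counts here ran from 7 to 14 over the other scalings.

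Endothelial genes were lower in 29 of 36 (80.6%) and higher in 0, with a median of -3.08 and 25 to 29 over the other scalings. Beside Epas1, Tmem100 read 1.57, 8.46 and 8.21, Cdh5 (VE-cadherin) read 2.10, 7.55 and 7.13, and Eng was given above. Fibroblast and elastic matrix genes were lower in 23 of 36 (range 23 to 28) and higher in 2 (range 0 to 3). Dcn (decorin) read 1.69, 7.45 and 7.02, Bgn (biglycan) read 2.80, 7.62 and 7.41, and Col1a1 read 2.67, 6.27 and 6.98. Npnt (nephronectin; 7.78, 6.36 and 6.64) and Efemp1 (6.16, 4.20 and 5.15) went against the list. Of 44 collagen chains 13 were lower (range 7 to 22) and 0 higher, whereas 4 of 10 laminin chains were higher (range 2 to 5) and 0 lower. Smooth muscle and pericyte genes were lower in 11 of 21 (range 9 to 13), with Acta2 at 3.01, 6.64 and 6.23, and Lgr6 was the one higher member with 4.72, 2.64 and 3.14. Heart muscle genes were lower in 10 of 18 (range 6 to 13), with Tnni3 at 2.60, 5.38 and 4.96. Mouse lung carries such muscle in its large veins, and the atria lie next to it. Mesothelial genes were lower in 4 of 11 (range 2 to 6), with Gpm6a at 1.76, 4.75 and 5.27. Msln (mesothelin), which carcinomas can also make, was higher with 6.66, 3.50 and 4.46.

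Of 19 genes shared by leukocytes, 12 were lower and 0 higher, with 6 to 18 lower over the other scalings. Lcp1 (plastin 2) read 3.23, 6.79 and 6.69, Rac2 read 2.50, 6.64 and 5.31, and Lsp1 read 2.49, 6.12 and 5.22. Macrophage and monocyte genes were lower in 10 of 28 (range 6 to 18) and higher in 3 (range 3 to 4). Lyz2 read 2.20, 8.0 and 7.70, Fabp4 read 2.09, 6.26 and 5.93 and Tyrobp read 1.94, 5.44 and 5.01. The higher 3 were Pparg (5.81, 2.49 and 3.47), a nuclear receptor that epithelium also has, the mannose receptor Mrc1 (5.24, 2.28 and 2.97) and Cd14 (4.79, 3.07 and 2.89). T and NK cell genes were lower in 5 of 26 (range 1 to 12), B cell genes in 2 of 15 (range 0 to 7) and neutrophil and mast cell genes in 4 of 20 (range 2 to 9), with 12, 6 and 12 under the mark on all arrays. The 3 erythroid genes were under the mark on every array, the lungs included.

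In the MHC class I route of antigen presentation 7 of 17 were lower (range 4 to 9) and 0 higher. The immunoproteasome subunits Psmb10 (4.18, 7.17 and 6.83), Psmb9 (2.0, 4.61 and 4.12) and Psmb8 (2.46, 5.36 and 4.29), the activator subunit Psme1 (3.86, 6.47 and 6.13) and the peptide transporter genes Tap2 (2.27, 4.26 and 4.77) and Tap1 (2.24, 4.05 and 4.30) made up 6 of the 7. B2m, the invariant chain of class I molecules, was within 2-fold at 9.66, 10.64 and 10.22. H2-K1, which has close relatives, read 4.66, 6.40 and 6.63. Of 38 proteasome subunits 6 (15.8%) were higher (range 1 to 25) and 3 (7.89%) lower (range 2 to 3). Among genes above the mark on at least 1 array these shares were 13.3% and 11.8%. The 3 lower subunits were those immunoproteasome subunits. Class II genes were lower in 4 of 12 (range 3 to 7), with H2-Ab1 at 1.66, 6.05 and 5.37.

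Interferon-stimulated genes were lower in 16 of 31 (range 9 to 19) and higher in 0. Iigp1, an immunity-related GTPase, read 1.86, 6.23 and 5.39, Gbp7, a guanylate-binding protein, read 1.61, 6.28 and 5.36, Oasl2 read 2.32, 5.66 and 5.25, and Ifit1 read 1.86, 4.02 and 4.29. Guanylate-binding proteins and immunity-related GTPases, many of them near-identical, were lower in 8 of 14 (range 8 to 12). The factors Irf1 (2.95, 5.38 and 4.80) and Irf9 (2.90, 5.05 and 4.36) and the RNA sensor gene Ifih1 (2.30, 4.25 and 4.35) were in the same direction. Complement genes were lower in 7 of 20 (range 2 to 9), with the inhibitor Serping1 at 1.99, 7.0 and 6.42. The 19 shared leukocyte genes had means of 1.93, 3.82 and 3.54 on the 3 arrays. Those of the interferon list were 2.24, 3.66 and 3.45. Leukocyte content was not measured, and the part of leukocytes in the differences of these lists was not tested.

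**Figure D5:**
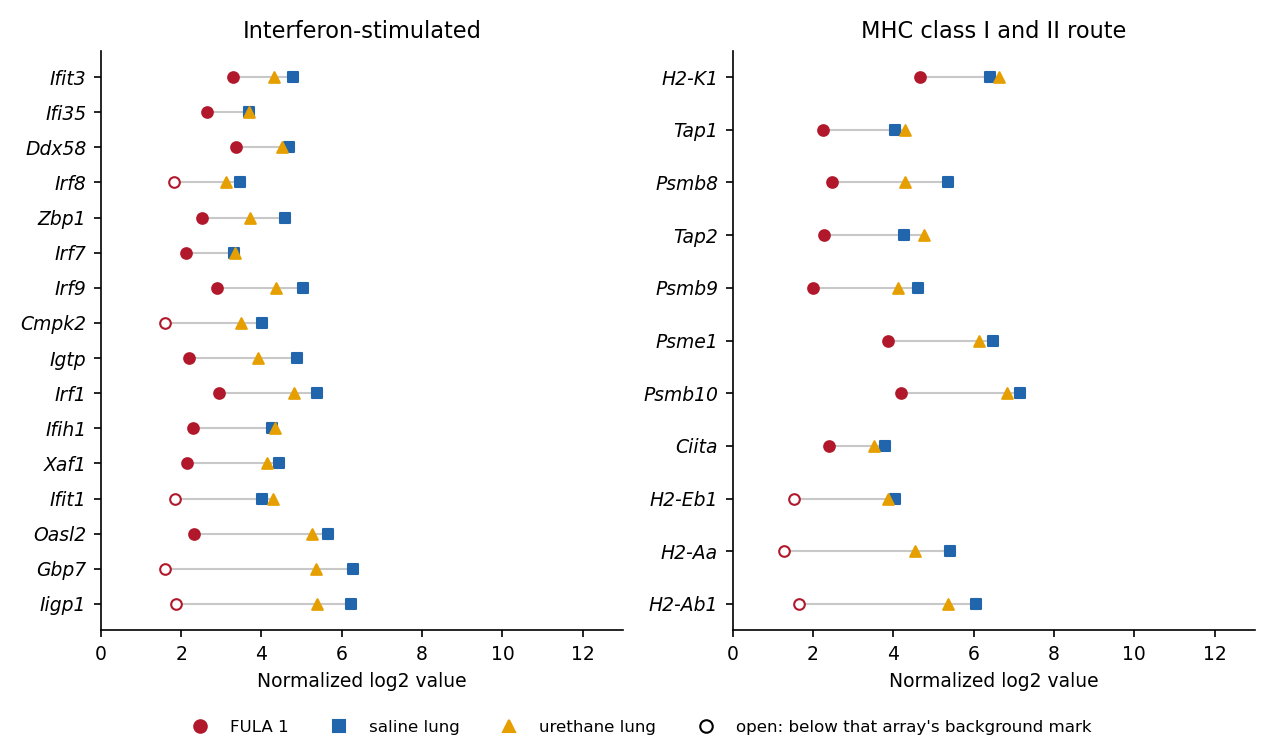
Normalized log2 values of every lower gene of the interferon-stimulated list (left, 16 genes) and of the MHC class I and class II lists (right, 7 and 4 genes), 1 point per array, with open symbols under that array's background mark. By the rule for a lower call, FULA 1 is leftmost in every row, with both lungs at least 1 log2 unit to its right.

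Probe sets of small RNA genes were not shown to read the mature RNA and may read precursors or host transcripts. Of 483 microRNA genes, 289 were under the mark on all arrays, 5 were higher on FULA 1 (range 4 to 46) and 40 lower (range 14 to 62). These shares, 1.04% higher and 8.28% lower, compare with 8.86% and 7.89% of all genes. The lower share was thus near that of all genes and the higher share under it. Mir31, a microRNA known from epithelial cancers, read 4.06, 1.51 and 1.88, Mir505 read 3.98, 1.34 and 0.93, and Mir27a read 3.50, 0.97 and 1.00. Both lungs were under their marks for these 3. Mir5099 read 12.61, 7.36 and 8.41, and Mir1949 read 5.49, 1.10 and 0.56. RefSeq (GRCm38.p6) gives mature sequences of both arms for the first 3, which are the higher microRNA genes with such an entry. Only 1 arm of each is shown here, with the seed (bases 2 to 8) in capitals. The probe sets were not shown to tell the arms apart. No seed is shared among the arms shown. The arm of Mir31 shown lies at chr4:88910614-88910635 on the minus strand, that of Mir27a at chr8:84208727-84208747 on the plus strand and that of Mir505 at chrX:60394416-60394437 on the minus strand.
miR-31-5p: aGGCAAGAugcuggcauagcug
miR-27a-3p: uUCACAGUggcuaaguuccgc
miR-505-3p: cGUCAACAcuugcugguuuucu

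Small nucleolar RNA genes were lower in 40 of 73 (54.8%, range 8 to 42) and higher in 2 (range 2 to 5), with a median of -1.84. Snord15a read 3.28, 9.59 and 9.38 and Snord17 read 5.38, 11.22 and 11.33, while Snord42b read 4.58, 1.57 and 1.92.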

How the data were processed

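Per the labels' protocols, total RNA of 3 samples was purified with Trizol and then on spin columns, then fragmented and tagged with biotin. The authors deposited 1 log2 value per probe set (41345) and array; the submitters' processing notes name RMA, and the series' design text names GeneSpring GX 12.5. Which arrays were normalized jointly, and with what background setting, was not given in the sources used here. Column medians were 4.96, 0.08 and 1.22, so all 3 columns were quantile-normalized to their mean quantiles (ties averaged; Python 3.11.15, pandas 2.3.3, numpy 2.4.6); 0 columns of other samples were present. Probe sets with 1 gene symbol (23521; 1814 had several, 16010 none here) were averaged per gene, with 23328 symbols updated by Entrez identifier through the RefSeq table of GRCm38.p6. Depth does not apply to arrays; their number limits the precision. The steps were tested on simulated data.

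Genes named are the 15 furthest on each side, up to 4 at each end of a list or family, and members against their list. Members, 57 lists (1427 of 1545 entries used) and families were chosen with earlier results of these data known, and family patterns were tightened after the files were seen. RefSeq held 426 of 483 microRNA genes. Alternatives changed the scale, threshold, mark, probe set rule and lung.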

Additional observations from a re-analysis of the deposited data

Results flagged for a closer look

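Probe sets that the comparison of named genes did not use also held calls, at shares under those of the named genes. Of the 17824 probe sets with no gene symbol or several, 1147 (6.44%) were at least 2-fold higher on FULA 1 than on both lungs and 1360 (7.63%) were lower, measured in the same way. The shares among named genes were 8.86% and 7.89%. No group held the 4 arrays that a search for outlying samples needs.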

How the results depend on the processing

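The counts of genes higher and lower than both lungs, 1965 and 1750, moved with the scale. As deposited they were 13795 and 18, and 1615 of the lower genes then counted as higher. With a common median they were 6288 and 715, under FULA 1 quantiles the lower count was 2712, and under percentile ranks it was 3163. Higher genes were 52.9% of all calls, against 99.9% as deposited, 89.8% with a common median and 39.9% under percentile ranks. At 1.5-fold the counts were 3335 and 3098, at 4-fold 438 and 495, and with the mark at the 99th percentile the higher count was 1198. With 1 lung left out they ranged from 2297 to 2401 higher and from 2159 to 2478 lower. Lung quantiles gave 1598 and 1216, the lowess curve 1540 and 1933, and the other alternatives stayed within 1.5 times. Of the 30 genes furthest from both lungs, Sprr1a and Krt8 lost their call under percentile ranks. Rps6 was the 1 higher gene that turned lower under another scaling, in 2 of them. With the highest probe set in place of the average, 1 higher gene counted as lower. No paired analysis was possible because each group holds 1 array.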

Other observations

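Called genes were spread unevenly over chromosomes. Among genes above the mark on at least 1 array, 13.3% were higher on FULA 1. On chromosome 19 it was 126 of 519 (24.3%) and on chromosome 3 it was 161 of 739 (21.8%), against 75 of 1197 (6.27%) on chromosome 7. The median difference from the mean of the lungs was 0.21 on chromosome 19 and -0.31 on chromosome 7, where that over all such genes was -0.11. No test was made, and genes of 1 chromosome are not independent.

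Clock genes were lower in 3 of 17 (1 to 6 over the 5 other scalings) and higher in 1. Hlf, an output factor, read 2.23, 4.88 and 4.59 (FULA 1, saline lung, urethane lung), and Arntl, of the positive arm, read 3.70, 2.68 and 2.66. In the semaphorin and plexin family, guidance cues and their receptors, Plxna2 read 5.04, 1.57 and 2.58 and Plxnb2 read 7.0, 4.29 and 4.69, while the endothelial Sema3g read 2.15, 4.25 and 4.39. The cytokine receptor Il22ra1, of epithelium, read 5.13, 1.96 and 1.72.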
